A study of Mus musculus with 24 samples.

Results

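The liver of mice on a purified control diet was described here from 6 of the 24 expression arrays of a phloridzin feeding study. These 6 arrays (control diet replicates 1 to 6) were chosen by their labels alone. All came from male BALB/c mice, 6 weeks old at the start, that ate the AIN-93G purified diet with no phloridzin for 14 days. The study planned 4 groups of 6 mice, housed 3 to a cage. The other diets held 0.1, 0.5 or 1.0% phloridzin, a plant glucoside that blocks glucose transport, and their livers serve below only as further samples in which variation could be measured. The mice had been kept with the dark period from 0800 to 2000, and the hour of killing is not given in the labels. Each of 45101 probe sets reports the signal of a transcript as a linear intensity, and 18193 genes had a probe set of their own.

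The 6 arrays held 4 distinguishable RNA units rather than 6. Over 2774 bright probe sets the SD of the log2 difference was 0.0574 between replicates 1 and 3 and 0.0509 between replicates 2 and 4. Every other pair of control arrays lay between 0.174 and 0.285. Replicates 1 and 3, and replicates 2 and 4, were therefore averaged and counted once, which leaves n = 4 units (replicates 1 and 3, replicates 2 and 4, replicate 5, and replicate 6). Whether these are 4 separate mice is not known, so the spread between them may be in part technical. Array medians of the deposited signal ran from 14.1 to 18, and with 4 units the precision of each SD is low.

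The liver makes most plasma proteins, handles nutrients arriving from the gut, stores glycogen, makes lipids and bile acids, and oxidises foreign compounds. Hepatocytes hold most of its mass, with Kupffer cells (resident macrophages), sinusoidal endothelium and stellate cells between them. Hepatocytes differ along the lobule, with urea synthesis and gluconeogenesis on the periportal side and many cytochromes P450 on the pericentral side. Many liver transcripts also follow the day, the last meal and the sex of the animal.

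Signals spanned a wide range, and most genes were dim. All values below are log2 of the quantile-normalized signal, on which 3.00 is the floor. The median gene had a mean of 5.00 over the 4 units, the upper quartile began at 7.25, the top 5% at 10.14 and the top 1% at 12.13. The 25 brightest genes held 6.5% of the summed linear signal of all genes and the 100 brightest 19.2%. At the other end, 1935 genes (10.6%) lay at the floor in all 4 units and 6047 in at least 1. A probe set's signal depends on its probes as well as on the transcript, so the order of genes by signal is an order of probe sets, not of RNA amounts.

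The labelled tissue matched its markers. Plasma carrier proteins had the highest list median of the 54 gene lists described (12.94, 11 genes), followed by plasma protease inhibitors (12.59, 14 genes) and apolipoproteins (12.55, 16 genes). Of the 15 lists of cell type markers, those of Kupffer cells (median 7.91), stellate cells and fibroblasts (7.31) and sinusoidal endothelial cells (7.11) lay above the median of all genes. The other 12 lay below it, down to skeletal muscle at 3.15. None of the 100 brightest genes belonged to a marker list.

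**Figure D1:**
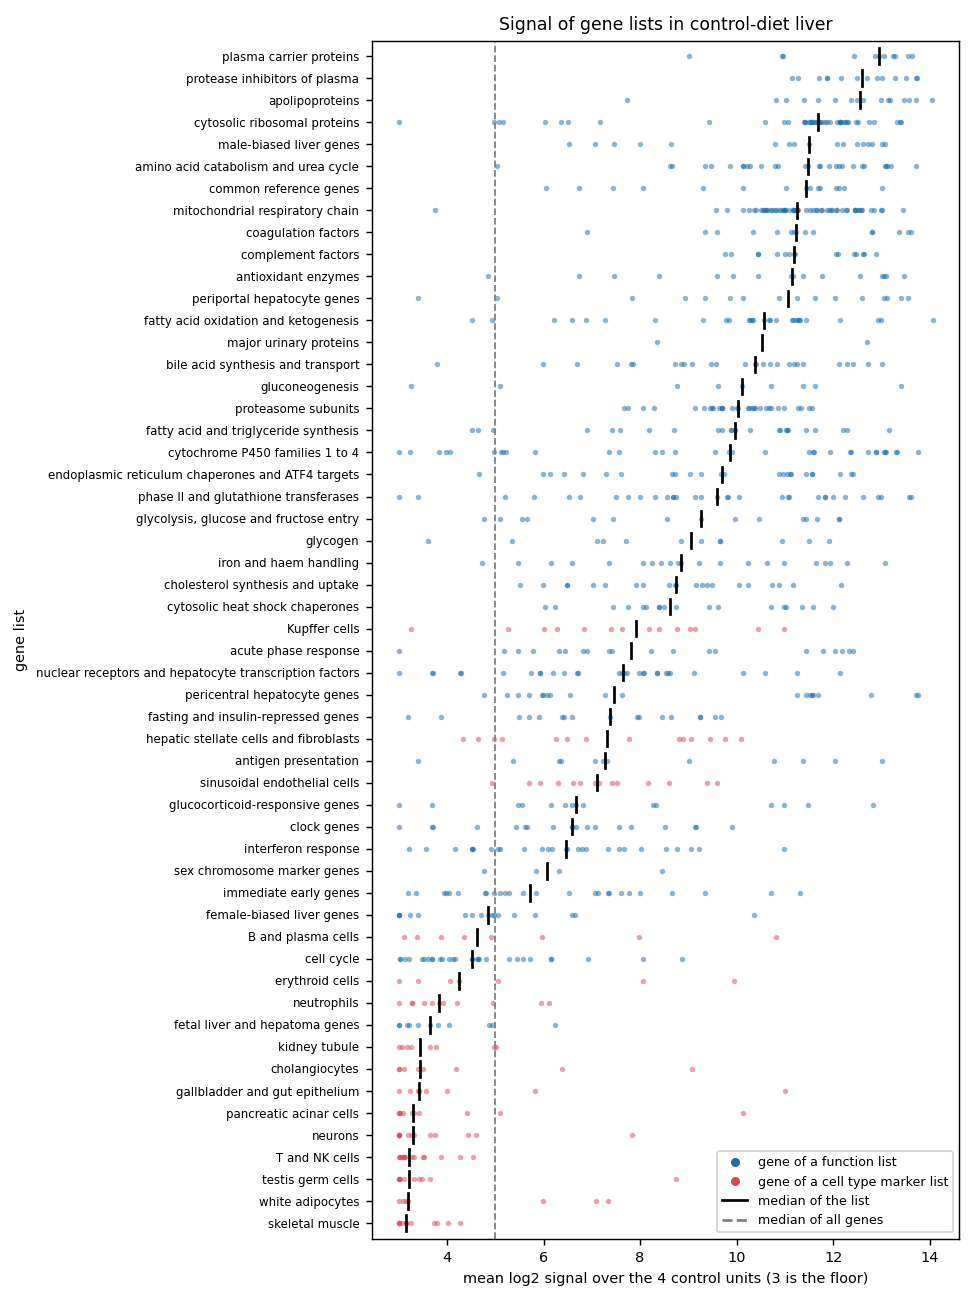
Mean log2 signal over the 4 control units (horizontal axis, 3 is the floor) for every measured gene of 54 gene lists (vertical axis, ordered by median). Blue points are genes of function lists, red points are genes of cell type marker lists, black bars are list medians and the dashed line is the median of all genes, 5.00. Plasma proteins, apolipoproteins, ribosomal proteins and the respiratory chain lie at the top, and markers of muscle, adipocytes, germ cells and lymphocytes at the bottom.

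The brightest gene was Fabp1, the fatty acid-binding protein of hepatocytes. It read 14.06 in replicates 1 and 3, 14.09 in replicates 2 and 4, 14.01 in replicate 5 and 14.09 in replicate 6. Apoa1, the main protein of high-density lipoprotein, followed at 14.04 ± 0.04 (SD, n = 4). The next was ND5, a complex I subunit encoded by mitochondrial DNA, at 13.75 ± 0.07. Cyp2e1, a pericentral P450 that oxidises ethanol, also stood at 13.75 and read 13.84, 13.72, 13.79 and 13.65 in the 4 units, in the same order. Of the 25 brightest genes, 23 belonged to a list, and the exceptions were ND5 and Scp2, a sterol carrier protein. The lowest of the 25, the fibrinogen chain Fgg, had a mean of 13.37, against 13.33 for the next gene outside.

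Secreted plasma proteins filled much of this group. Alb, serum albumin, read 13.53, 13.51, 13.58 and 13.52. Ttr, which carries thyroid hormone and retinol-binding protein, averaged 13.64 ± 0.04. The fibrinogen chains Fga and Fgb averaged 13.61 ± 0.06 and 13.55 ± 0.12. Fgb was lower in replicates 5 (13.44) and 6 (13.46) than in the averaged pairs (13.61 and 13.68). Serpina1b and Serpina1c, which encode forms of the elastase inhibitor alpha-1-antitrypsin, averaged 13.74 and 13.71, and their probe sets may share signal because the copies are near-identical. Apoa2, Apoe and Apoh averaged 13.72, 13.57 and 13.46. Selenop, the plasma selenium carrier, averaged 13.46 ± 0.03, and Pzp, a protease inhibitor of the alpha-2-macroglobulin family, 13.50 ± 0.10.

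Enzymes and housekeeping proteins made up the remainder. Car3 (carbonic anhydrase, 13.72), Bhmt (which remethylates homocysteine, 13.71), Gstp1 and Mgst1 (glutathione transferases, 13.61 and 13.56) and Fbp1 (the gluconeogenic fructose-bisphosphatase, 13.41) each had an SD between units of 0.071 or less. Uqcrb, a complex III subunit, averaged 13.45. Rps29, a ribosomal protein, averaged 13.40 and the elongation factor Eef1a1 13.39. The 25 SDs ran from 0.008 to 0.115. Quantile normalization gives the brightest ranks nearly the same value on every array, so these SDs understate the spread at the top of the scale.

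**Figure D2:**
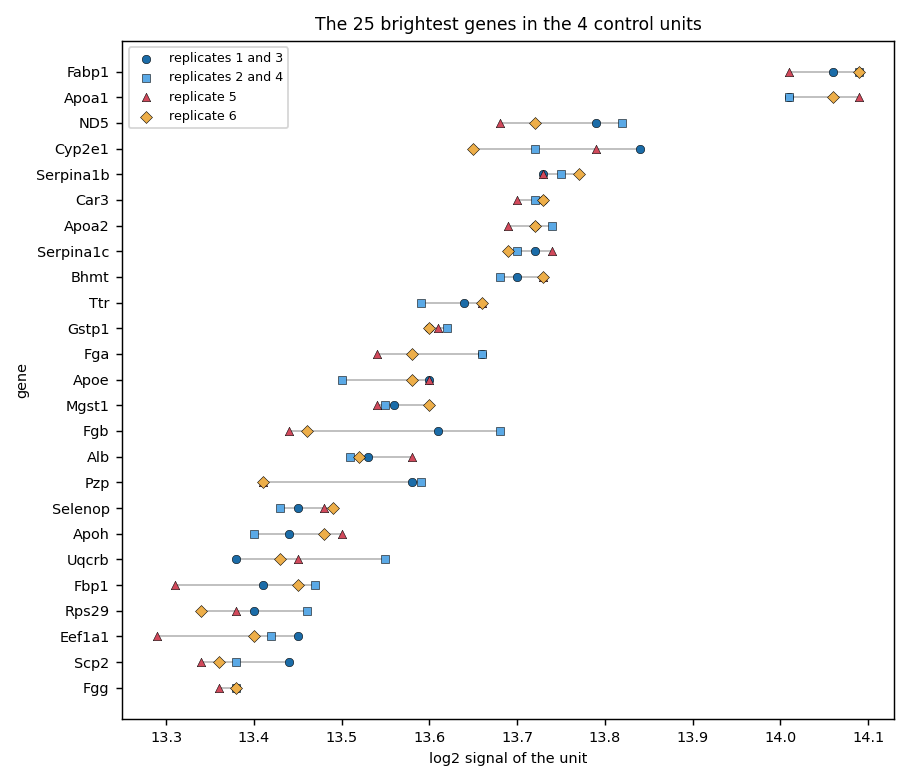
Log2 signal of the 25 brightest genes (vertical axis, in order of mean) in each of the 4 control units (symbols). Grey lines join the lowest and the highest unit. Fabp1 and Apoa1 stand above the rest at 14.06 and 14.04, and the widest range among the 25 is that of Fgb, from 13.44 to 13.68.

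Promoters of 2 bright genes are shown because they carry short motifs searched for in all promoters. The sequences are the 250 bases before the RefSeq start on GRCm38.p6, with motif matches in capitals. Fabp1 lies on chromosome 6 (chr6:71199629-71199878, plus strand) and holds a TATA box (TATAAA) that begins 30 bases before the start. Alb lies on chromosome 5 (chr5:90460620-90460869, plus strand) and holds 2 D-boxes (TTATGTAA or TTACGTAA on either strand), the motif bound by PAR bZIP factors such as DBP, at 223 and 204 bases before the start.
Fabp1: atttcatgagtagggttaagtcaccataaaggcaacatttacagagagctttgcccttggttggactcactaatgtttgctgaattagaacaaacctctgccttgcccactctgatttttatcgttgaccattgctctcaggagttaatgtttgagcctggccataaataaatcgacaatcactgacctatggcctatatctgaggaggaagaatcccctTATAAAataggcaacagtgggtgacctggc
Alb: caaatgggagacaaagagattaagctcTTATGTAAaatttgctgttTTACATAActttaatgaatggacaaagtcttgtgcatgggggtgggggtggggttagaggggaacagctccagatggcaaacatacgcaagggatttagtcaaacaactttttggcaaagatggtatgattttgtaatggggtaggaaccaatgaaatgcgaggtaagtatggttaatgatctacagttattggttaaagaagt
Over the 250 bases a match in either orientation was counted, so these are descriptions of letters and not of binding. TATAAA occurred within the 250 bases of 22 of 84 of the 100 brightest genes with a promoter entry (26.2%), against 1513 of 14452 genes on the array (10.5%) and 247 of 1474 genes at the floor (16.8%). The window from 45 to 16 bases before the start was searched on the gene's own strand only. There the share was 5.95% for the 100 brightest genes, 5.97% for genes at the floor and 2.87% for genes on the array. A D-box occurred in 3 of the 84 (3.57%) and in 0.913% of genes on the array.

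Among plasma protein lists, complement and coagulation factors had medians of 11.19 and 11.22. The brightest complement genes were C9 (12.88) and C8a (12.62), which build the membrane attack complex. C9 read 13.13, 12.95, 12.90 and 12.54 in the 4 units, and C8a 12.89, 12.79, 12.49 and 12.30. Replicates 1 and 3 were highest and replicate 6 lowest for both. Replicates 1 and 3 were highest in 12 of 16 complement genes, against 24.5% of all tested genes with a mean of 6 or more. Replicate 6 was lowest in 10 of the 16, against 1648 of those 7142 genes. Replicates 1 and 3 were also highest in 10 of 15 coagulation genes and 10 of 14 plasma protease inhibitors. With scaling by array medians they were highest in 10 of 16 complement genes, 6 of 15 coagulation genes and 4 of 14 protease inhibitors. Over all 13077 genes tested that number was 2956. Acute phase genes covered a broad span, from Orm3 at the floor to Apcs, serum amyloid P, at 12.40. Saa1, a serum amyloid A that rises in inflammation, read 11.64, 10.82, 12.24 and 11.02 and was highest in replicate 5.

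Metabolic lists were bright as well. Amino acid catabolism and the urea cycle had a median of 11.47, with 21 of 29 genes in the top 5%. Cps1, the entry enzyme of the urea cycle, averaged 13.12 ± 0.07, and Hpd, of tyrosine breakdown, 13.20 ± 0.04. Ass1, another urea cycle enzyme, was dim at 5.04, which is the value of its brightest probe set. Fatty acid oxidation and ketogenesis had a median of 10.56 and bile acid synthesis and transport 10.37. Slc10a1, the bile acid importer of hepatocytes, averaged 12.41 ± 0.12. Pck1, the cytosolic PEP carboxykinase that limits gluconeogenesis, read 11.93, 11.41, 11.57 and 11.59.

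Lipid synthesis genes were bright on this diet but less even. The fatty acid and triglyceride list had a median of 9.96 and the cholesterol list 8.74. Scd1, the stearoyl-CoA desaturase, read 13.18, 13.22, 12.90 and 13.33. Fasn, fatty acid synthase, read 9.56, 10.33, 9.58 and 10.42 and was higher in replicates 2 and 4 and in replicate 6 than in the others. Thrsp, a regulator of lipogenesis, read 11.03, 11.49, 10.07 and 10.93 and was lowest in replicate 5.

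Genes of energy metabolism and protein synthesis were bright as groups. Of 60 genes of the mitochondrial respiratory chain 56 lay in the top 5%, with a median of 11.25. Cytosolic ribosomal proteins had a median of 11.69, and 36 of 45 lay in the top 5%. Rps16 was at the floor in all 4 units and Rpl27a averaged 7.16. Both lie far under the median of the list, and the part of the probe sets present for these genes was not tested. Proteasome subunits had a median of 10.02 and ranged from 7.66 to 11.56. Mitochondrial ribosomal proteins, grouped by symbol, had a median of 8.62 over 76 genes and none lay at the floor.

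Genes known to be male-biased in mouse liver were bright in these males and most female-biased genes were dim. The 17 genes of the male-biased list had a median of 11.50. Hsd3b5, a male-specific steroid dehydrogenase, averaged 12.71 ± 0.04, and the P450 Cyp2d9 13.08 ± 0.04. The 17 female-biased genes had a median of 4.85. Sult3a1, Sult1e1 and Cyp3a16 were at the floor in all 4 units. Rtn4, a reticulon, was the brightest of the 17 at 10.36, and 2 others had a mean between 6 and 9. The Y-linked Eif2s3y, Uty and Kdm5d averaged 8.46, 6.32 and 5.85, and Xist, the RNA of the inactive X chromosome, 4.77.

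Periportal genes had a median of 11.06 and pericentral genes 7.45. Periportal Cyp2f2 averaged 13.06 ± 0.01. The pericentral list was split, with Cyp2e1, Car3 and the retinal dehydrogenase Aldh1a1 (12.79) at the top. Axin2 (5.97) and Tbx3 (6.13), targets of Wnt signalling, were among its dim members, and the lowest value in the list was 4.77. Hepatocyte transcription factors were moderate, at a median of 7.65. Xbp1, Hnf4a and Cebpa, factors of secretory and hepatocyte identity, averaged 12.15, 11.24 and 10.59. Hnf4g was at the floor.

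Transcripts of proliferation, of the fetal liver and of other organs were dim. Cell cycle genes had a median of 4.51, with Pcna, the replication clamp, at 8.86 as the brightest of 29. Fetal liver genes had a median of 3.65. Afp, alpha-fetoprotein, averaged 4.88 ± 0.46, and Cdh17 and Lin28b were at the floor. T and NK cell markers had a median of 3.21 and none exceeded 4.54. Grouped by symbol, 32 vomeronasal receptors had a median of 3.00 with 18 at the floor, and 39 olfactory receptors one of 3.19 with 5 at the floor. Of 36 Hox genes 14 were at the floor, of 20 beta defensins 9, and of 84 potassium channel genes 14. No detection calls were used here, so the floor marks values too low to rank and is no test of absence.

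Some markers of other cell types were bright. Over all 15 marker lists, those of Kupffer, endothelial and stellate cells included, 158 genes were measured. Of these, 101 had a mean under 5 and 15 had a mean of 9 or more. Those 15 bright genes included 4 Kupffer, 4 stellate and fibroblast and 2 endothelial markers. Cela1, an elastase listed for the pancreas, averaged 10.13 ± 0.16, while Cpa1 and Pnliprp1 of the same list were at the floor. Fabp2, an intestinal fatty acid-binding protein, read 11.10, 11.13, 10.96 and 10.82, while Vil1, villin, was at the floor. Sdc1, a syndecan carried by plasma cells and by epithelia, averaged 10.82. Alas2, the erythroid haem enzyme, averaged 9.94 ± 0.17, while Epb42 was at the floor. Prm1, a sperm protamine, averaged 8.75 ± 0.43, while Tnp2 and Ddx4 were at the floor. Syt1, a synaptotagmin, averaged 7.83 ± 0.13, while Gad1, Nefl and Nefm were at the floor. Whether other cells gave this signal was not tested. In whole tissue, fewer cells of a type and less RNA per cell cannot be told apart.

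Kupffer cell markers were led by Slc40a1, the iron exporter ferroportin, which hepatocytes also express (10.98), and by Csf1r, the macrophage growth factor receptor (10.45). Vsig4 and Cd5l averaged 9.04 and 9.13. The endothelial lectin Clec4g averaged 9.59, the scavenger receptor Stab2 8.59 and Pecam1 4.94. Stellate and fibroblast markers included decorin (Dcn, 10.08) and reelin (Reln, 9.76). Des, desmin, averaged 4.34.

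Differences between units exceeded those between repeat arrays over much of the transcriptome. The median SD over the 4 units was 0.213 log2 across the 13077 genes tested, against 0.093 between repeat arrays of 1 unit. In a limma F-test over the 4 units, 4804 of 13077 genes (36.7%) had a Benjamini-Hochberg adjusted p under 0.05, and 6632 had an unadjusted p under 0.05. The share rose with signal, from 13.7% of genes with a mean under 6 to 47.5% between 6 and 9 and 81.0% at 9 or more. The error in this test comes from the 2 repeat pairs alone (2 residual degrees of freedom, borrowing 3.82 from the other genes), and the pairs were recognised by being alike. Which steps the paired arrays shared is not known, so this error cannot be taken to cover labelling or dissection.

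The count rests on few repeats. It was 0 when limma's variance trend was left out (5131 genes with an unadjusted p under 0.05, smallest adjusted p 0.0517). It was also 0 whenever replicate 1, 2, 3 or 4 was left out, with 4352 to 5483 genes at an unadjusted p under 0.05. With the error taken from the repeat sets of all 24 arrays (12 residual degrees of freedom) limma called 3130 genes, of which 2806 were among the 4804. Calls below are those of the F-test over 4 units with the trend.

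**Figure D3:**
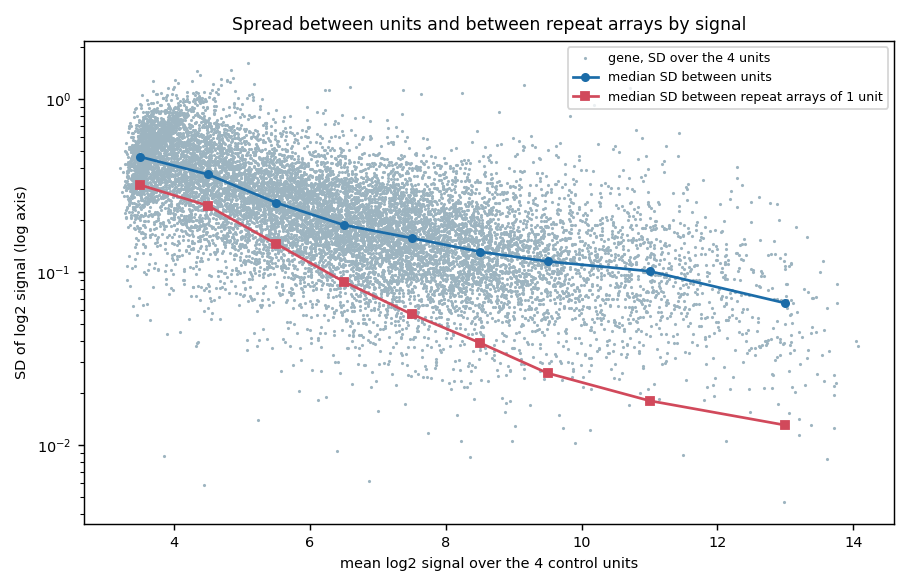
SD of log2 signal over the 4 control units (vertical, log axis) against mean log2 signal (horizontal) for 13077 genes (grey points). The blue line joins median SDs between units by signal class and the red line those between repeat arrays of 1 unit. The lines run from 0.464 and 0.319 under a mean of 4 to 0.066 and 0.013 above 12, so the ratio between them is larger for bright genes.

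The 25 most variable genes were the called genes of mean 6 or more with the largest SD, from 1.21 for Dbp to 0.655 for Cyp2c39 (0.650 for Abcc5, just outside). They were chosen by these values, which are therefore given as a description. Without a single unit the SD of 15 of the 25 changed by over 1.5 times, and that of 10 did not: Dbp, Bcl6, C730036E19Rik, Foxq1, Rgs16, Pnn, Gbp7, Obp2a, Rpl27a and Cyp2c39. The probe set read for a gene also mattered. Without probe sets of the x and s kinds, which may match several transcripts, the limma F-test no longer called Ces5a (SD 0.328, adjusted p 0.313), Foxq1 (0.401, 0.0601), Hbb-b2 (0.430, 0.137) and Smad7 (0.267, 0.19). With the median of a gene's probe sets limma no longer called these 4 genes, nor Malat1 (SD 0.166, adjusted p 0.38), Rpl27a (0.305, 0.213) and Rgs3 (0.535, 0.0638), and the SDs of Pnn and Egfr fell to 0.389 and 0.381. The limma calls of Ces5a, Foxq1, Cry2, Sqle and Malat1 were lost with no filter and with a floor of 32, that of Ces5a with the error from all 24 arrays, and those of Cry2 and Sqle without replicate 6.

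Dbp had the largest SD of the 25. Dbp, a PAR bZIP transcription factor whose RNA swings widely over the day in liver, read 10.20 and 10.18 in the averaged pairs and 8.26 and 7.96 in replicates 5 and 6. The averaged pairs were thus high and the single arrays low, 4.72-fold from end to end. Of the wider clock list, Tef (8.82, 8.78, 8.18, 8.27) and Nr1d2 (10.27, 10.12, 9.64, 9.62), the first a relative of Dbp and the second a nuclear repressor, were ordered alike. Nfil3 (7.56, 7.38, 8.32, 8.02), a repressor of the genes that Dbp activates, and Cry1 (6.16, 6.34, 7.12, 6.74), a core repressor, went the opposite way, with replicates 5 and 6 above the averaged pairs. Bhlhe40, a repressor in the same circuit, read 9.40, 9.74, 8.85 and 8.56. Cry2, a core repressor, read 6.61, 6.85, 6.36 and 4.99, and its SD of 0.833 fell to 0.246 without replicate 6. Rgs16, a regulator of G protein signalling, followed the order of Dbp at 10.55, 10.48, 9.23 and 9.07. In all, 12 of 18 clock genes tested were called, among them 7 of 9 with a mean between 6 and 9, where 47.5% of all genes were.

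Both inducible HSP70 genes were among the 25. Hspa1b, an inducible HSP70, read 12.21 in replicate 5 and 9.62 in replicates 2 and 4, a 6.03-fold range, with the other units between, at 10 in replicates 1 and 3 and 11 in replicate 6. Hspa1a, its near-identical neighbour, read 6.24, 4.80, 7.57 and 6.30, and signal may be shared between them. Without replicate 5 the SD of Hspa1b fell from 1.16 to 0.712, and without replicates 2 and 4 that of Hspa1a fell from 1.13 to 0.749. Bag3, a co-chaperone of the same response, read 7.30, 6.80, 8.26 and 7.37. Hspd1 and Hspe1, the mitochondrial chaperonin pair, went another way, at 11.46 and 11.26 in replicate 5 against 11.72 and 11.42 in replicates 1 and 3. In the list of 18 chaperones 17 were called: 8 of 8 with a mean of 9 or more, where 81.0% of all genes were, and 9 of 10 between 6 and 9, where 47.5% were. Replicate 5 was highest in 10 and replicates 2 and 4 in 0. Replicate 5 was highest in 29.2% of all tested genes with a mean of 6 or more. Without scaling of the deposited signals it was highest in 7 of the 18, against 1412 of all 13077 genes tested.

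Several genes of cytokine and growth signalling, and some of other kinds, varied in different patterns. Cish, a feedback inhibitor of cytokine receptors, read 7.19, 8.26, 5.85 and 8.20, and its SD fell from 1.13 to 0.6 without replicate 5. Bcl6, a transcriptional repressor, read 9.49, 7.48, 8.82 and 7.21, high in replicates 1 and 3 and in replicate 5. Egfr, the epidermal growth factor receptor, showed the same order at 11.64, 10.43, 10.98 and 10.13, and without replicates 1 and 3 its SD fell from 0.666 to 0.432. Serpina4-ps1, a serpin pseudogene, read 10.32, 11.15, 8.93 and 10.35 and was lowest in replicate 5, without which its SD fell from 0.924 to 0.469. Obp2a, an odorant-binding lipocalin, read 7.95, 6.69, 6.66 and 7.76. Smad7, an inhibitor of TGF-beta signalling, read 7.28 in replicates 1 and 3 and 5.80 to 5.97 elsewhere, so its SD fell from 0.712 to 0.087 without them. Its other probe set was low and put replicates 2 and 4 highest (5.74, 5.99, 5.38, 5.53). Gadd45g, a stress-inducible gene, read 8.58 in replicates 2 and 4 and 6.82 to 7.04 elsewhere, and its SD fell from 0.817 to 0.116 without them.

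Of the 25, Alas1, Sqle, Hbb-b2, Cyp2c39, Malat1 and Rpl27a were highest in replicate 6. Alas1, the first and limiting enzyme of haem synthesis, read 8.49, 8.82, 7.93 and 9.93, and its SD fell from 0.841 to 0.447 without replicate 6. Sqle, squalene epoxidase, read 6.10, 6.34, 5.81 and 7.65, and its SD fell from 0.811 to 0.265 without it. Hbb-b2, a beta globin, read 6.05, 6.83, 6.80 and 7.87, and its SD fell from 0.748 to 0.442. The iron and haem handling list as a whole had no such order, with replicate 6 highest in 5 of 21 genes. Cyp2c39, a P450, read 7.90, 8.83, 7.92 and 9.19.

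The other members were of mixed kind. Ces5a, a carboxylesterase, read 6.51, 4.98, 7.68 and 7.22, with an SD of 0.748 between repeat arrays, so its spread between units is poorly measured, and without replicates 2 and 4 that spread fell from 1.18 to 0.588. Malat1, a long nuclear RNA, read 7.16, 5.68, 6.84 and 7.49, and its SD fell from 0.785 to 0.323 without replicates 2 and 4. Rgs3 read 7.56 in replicates 2 and 4 and 6.04 to 6.54 elsewhere, and its SD fell from 0.662 to 0.251 without them. Hectd2os, an RNA from the opposite strand of another gene, read 7.90, 7.47, 6.14 and 7.03, and its SD fell from 0.754 to 0.438 without replicate 5. Pnn (a nuclear speckle protein), Gbp7 (an interferon-inducible guanylate-binding protein) and C730036E19Rik were higher in both averaged pairs than in either single replicate. Foxq1, a forkhead factor, ranged from 5.48 to 7.19 and Rpl27a from 6.47 to 7.84.

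**Figure D4:**
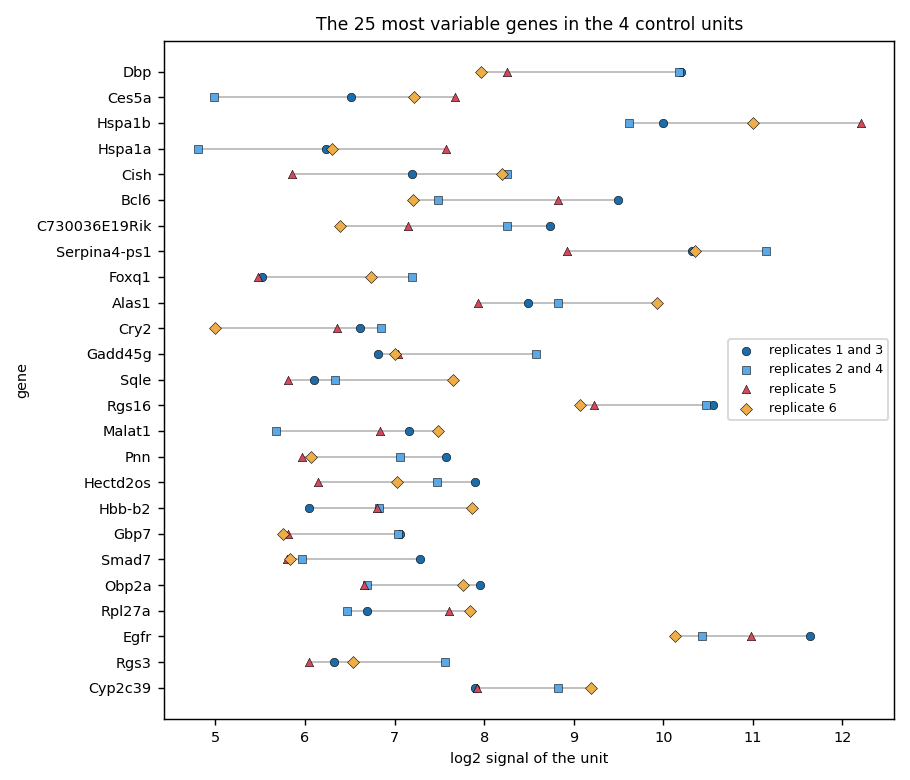
Log2 signal of the 25 most variable genes (vertical axis, in order of SD) in each of the 4 control units (symbols). Grey lines join the lowest and the highest unit. Dbp and Rgs16 separate replicates 5 and 6 from the averaged pairs, Hspa1b is highest in replicate 5 at 12.21, and Alas1 and Sqle are highest in replicate 6 at 9.93 and 7.65.

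Upstream sequences of Hspa1b and Bcl6 are shown as members with motif matches, chosen after the matches were seen. Hspa1b (chr17:34959239-34959488, minus strand) holds a heat shock core (GAANNTTC) at 104 bases before the start. The upstream region of the second Bcl6 start listed (chr16:23981284-23981533, minus strand) holds 3 STAT sites (TTCNNNGAA) at 168, 122 and 88 bases, and that of the first start listed holds 1.
Hspa1b: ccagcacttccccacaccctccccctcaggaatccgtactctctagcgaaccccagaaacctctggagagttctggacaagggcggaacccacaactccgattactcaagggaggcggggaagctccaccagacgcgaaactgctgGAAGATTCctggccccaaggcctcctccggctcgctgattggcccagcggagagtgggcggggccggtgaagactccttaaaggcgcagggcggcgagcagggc
Bcl6: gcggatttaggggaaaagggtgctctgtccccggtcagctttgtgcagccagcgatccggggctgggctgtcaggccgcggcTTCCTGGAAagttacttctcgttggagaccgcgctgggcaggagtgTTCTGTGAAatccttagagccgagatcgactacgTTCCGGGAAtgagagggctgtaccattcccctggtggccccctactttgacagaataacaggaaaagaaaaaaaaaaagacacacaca
The heat shock core occurred upstream of 7 of 16 chaperone genes with a promoter entry (43.8%), against 6.62% of genes on the array. The longer heat shock element occurred in 2 of the 16 and in 0.484% of genes on the array. STAT sites occurred in 5 of 20 of the most variable genes with an entry (25%), against 7.42% on the array. The E-box (CACGTG) occurred in 5 of 17 clock genes (29.4%) and in 8.73% of genes on the array. The CRE (TGACGTCA) and the interferon stimulated element were each found in 1 of the 20 most variable genes, against 2.50% and 3.13%. Both strands were searched, the short core lies within the longer element, and no test was made of these shares.

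Some lists stood highest or lowest as a whole in single units. Among lists with at least 5 genes of mean 6 or more, the largest range of a list's mean deviation was that of cholesterol synthesis and uptake, at -0.22, 0.06, -0.21 and 0.37 in the 4 units. Of its 21 genes tested, 18 were called by the limma F-test: 10 of 10 with a mean of 9 or more (81.0% of all such genes), 8 of 9 between 6 and 9 (47.5%), and the others dimmer. Of the 21, 17 were highest in replicate 6, against 27.3% of the 7142 genes with a mean of 6 or more. Fdps, which makes farnesyl diphosphate, read 9.71, 10.47, 9.89 and 10.90. Idi1, an isomerase of the same route, read 9.19, 9.32, 8.44 and 9.64. Hmgcs1, the cytosolic HMG-CoA synthase, was level between replicates 2 and 4 and replicate 6, at 11.18 in both. The number highest in replicate 6 was 15 to 18 under the other scalings tried.

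Fatty acid synthesis genes shared part of this order. Replicates 2 and 4 and replicate 6 were high (0.17 and 0.13) and the other units low (-0.13 and -0.17), and 22 of 25 genes were called, 17 of 17 with a mean of 9 or more (81.0% of all such genes) and 4 of 5 between 6 and 9 (47.5%). Replicate 6 was highest in 13 of the 25 and replicates 2 and 4 in 9, against 27.3% and 19% of all genes with a mean of 6 or more. Elovl5, a fatty acid elongase, read 12.19, 12.49, 11.99 and 12.45. Igfbp1, a secreted protein repressed by insulin, read 8.49, 9.84, 9.05 and 9.64, again with replicates 2 and 4 and replicate 6 on top. The list of fasting and insulin-repressed genes as a whole lay between -0.03 and 0.06.

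In the list of endoplasmic reticulum chaperones and ATF4 targets, replicate 5 was highest in 15 of 24 genes, against 29.2% of all genes with a mean of 6 or more, and the list's deviation was 0.12 there. Creld2, a stress-inducible secretory gene, read 8.75, 9.07, 10.03 and 9.21, and Dnajb9, a co-chaperone, 10.55, 10.62, 11.57 and 11.06. With no scaling of the deposited signals the list's deviation in replicate 5 was -0.01. That replicate was then highest in 9 of the 24, against 1412 of all 13077 genes tested. Without scaling the mean over all genes tested itself differed by 0.11 in replicates 2 and 4 and by -0.14 in replicate 5.

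MHC class II genes were highest in replicates 2 and 4. Cd74, the invariant chain, read 7.19, 8.01, 6.78 and 6.93, and H2-Eb1, a class II beta chain, 6.85, 7.85, 6.80 and 6.72. Class I genes showed no such order, with H2-K1 at 10.71, 10.72, 10.82 and 10.86. Kupffer cell markers were also highest there, with deviations of -0.04, 0.11, -0.04 and -0.02, mean levels of 7.63, 7.78, 7.68 and 7.65, and 8 of 13 genes highest in replicates 2 and 4, against 20.8% of all genes tested. Adgre1, the F4/80 antigen, read 7.12, 7.56, 7.49 and 7.38. The part of macrophage content in the class II values was not tested.

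**Figure D5:**
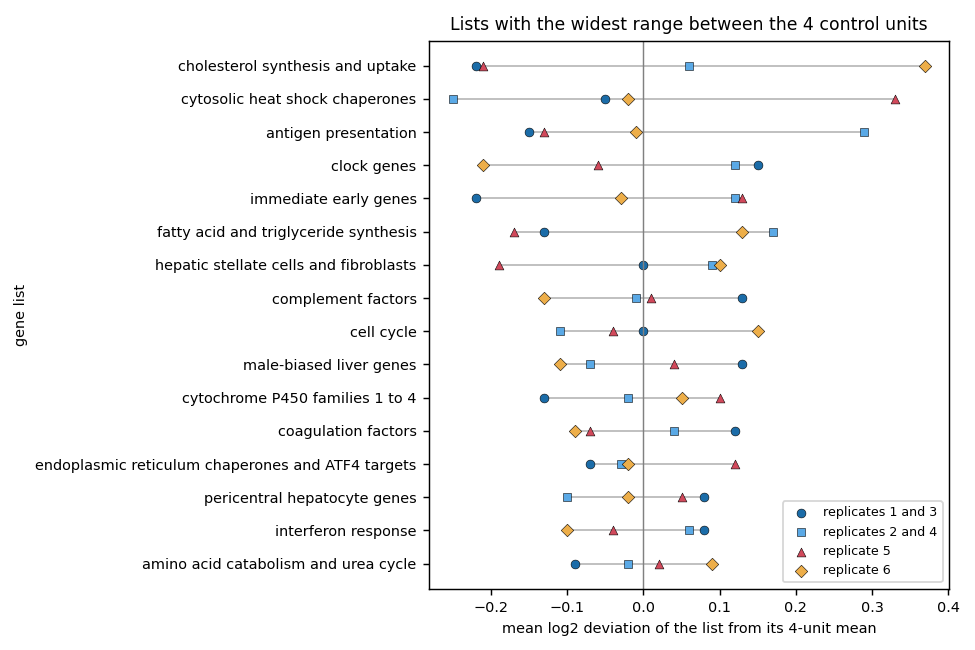
Mean log2 deviation of each list from its mean over the 4 control units (horizontal axis) for the 16 lists with the widest range among lists with at least 5 genes of mean 6 or more (vertical axis). Symbols are units and grey lines join the extremes. Cholesterol synthesis is highest in replicate 6 (0.37), heat shock chaperones in replicate 5 (0.33) and antigen presentation in replicates 2 and 4 (0.29).

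The most common split of the units among called genes with a large SD set replicates 5 and 6 apart. Of 273 called genes with a mean of 6 or more and an SD of 0.4 or more, the largest gap between neighbouring values separated replicates 5 and 6 from the averaged pairs in 102. In 85 of these the averaged pairs were higher and in 17 replicates 5 and 6 were. Dbp, Rgs16, Pnn and Gbp7 were among the 85, as were Cp, ceruloplasmin (12.77, 12.48, 11.99, 11.93), Slco1a1, an organic anion importer (11.68, 11.39, 10.88, 10.78), and Pigr, the polymeric immunoglobulin receptor (11.89, 11.49, 10.82, 10.79). Jund (8.16, 8.34, 9.11, 9.01), a subunit of AP-1, and Rpl27a were among the 17. Replicates 1 and 3 alone stood apart in 49 genes, replicate 5 alone in 40, replicate 6 alone in 39 and replicates 2 and 4 alone in 21. All 273 genes were chosen for their SD over these units, and no share over all genes was taken. Over 2774 bright probe sets, arrays of different averaged pairs differed from each other by an SD of 0.174 to 0.175. Replicates 5 and 6 differed by 0.186, and arrays across the split by 0.226 to 0.285.

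One set of array controls was divided by the same split. The 24 poly-A control probe sets differed from the 18 hybridisation control probe sets by -3.18, -3.21, -3.17 and -3.23 log2 units on replicates 1 to 4, and by -2.57 and -2.56 on replicates 5 and 6. The 3′ to 5′ controls were not, and had their largest gap between replicates 1 and 3 and the rest. The 3′ minus 5′ signal of actin was 1.53, 1.39, 1.36 and 1.30 in the 4 units, and that of Gapdh -0.27, -0.34, -0.36 and -0.35. The part of labelling and RNA quality in the 102 genes was not tested.

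The least variable bright genes were level in all units. Cox6a1, a subunit of cytochrome c oxidase, read 12.98, 12.97, 12.98 and 12.98 (SD 0.005). The other 9 genes with the smallest SD among 1782 tested genes of mean 9 or more were Gstp1, Psma3, Gchfr, Rps20, Adh1, Clta, Car3, Pfdn5 and Rer1, with SDs of 0.008 to 0.013, against a median of 0.103. None of the 10 was called, and a p that misses the threshold does not show equality. These were chosen for their small SD. In the 7 phloridzin units Gchfr, a regulator of GTP cyclohydrolase, had an SD within diet of 0.243, the widest of the 10.

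Of 15 common reference genes 11 were called. With a mean of 9 or more 10 of 11 were, above the 81.0% of all genes of that signal. Between 6 and 9 it was 1 of 4, under the 47.5%. Actb read 10.98, 11.13, 11.05 and 10.96 (SD 0.08). Hprt averaged 9.30 ± 0.05 and Tbp 6.74 ± 0.06, and neither was called. Tfrc, the transferrin receptor, was the least even, at 7.94, 7.55, 8.50 and 8.25. Pgk1, a glycolytic enzyme, read 11.93, 12.18, 12.10 and 12.27, and Sdha, of complex II, 11.64, 11.64, 11.38 and 11.40.

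The same measures were taken in livers the choice of genes did not use. The phloridzin arrays whose RNA carried 1 diet label (14 arrays) formed 7 units, and the F-test was run within diet. Here 4315 of 13077 genes (33.0%) were called, and 79.1% of those with a mean of 9 or more. Of the 4804 genes called in control liver 2696 (56.1%) were called again, which is 62.5% of the 4315. The phloridzin share rose with signal, from 6.05% of genes with a mean under 4 to 82.2% between 10 and 12. Calls in control liver rose with signal too, so the 33.0% is no background of matched signal for the 56.1%. Among the 25 most variable genes 21 were called, and Ces5a, Sqle, Malat1 and Hbb-b2 were not. All 25 had a mean of 6 or more, where the phloridzin share ran from 26.5% (6 to 7) to 82.2% (10 to 12). Dbp ranged from 5.22 to 11.08 over the 7 units (median 9.80), and Serpina4-ps1 from 7.91 to 11.04 (median 10.16). Gadd45g ranged from 5.18 to 7.95, Cish from 6.42 to 8.45 and Bcl6 from 6.61 to 8.59. Hspa1b ranged from 8.09 to 10.46 (median 9.39). Diet differs between these units and the control units, so these levels are given side by side and were not tested against each other.

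The bright end was shared as well. Of the 25 brightest genes in control liver 23 were among the 25 brightest of the 7 phloridzin units, and of the 100 brightest 97. Of the 1935 genes at the floor in all control units 1159 were at the floor in all 7 phloridzin units, where 1602 genes lay at the floor.

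Other probe sets of the same genes gave a second reading of the same RNA. Of the 25 most variable genes 16 had 33 further probe sets, of which 11, from 6 genes, had a mean of 6 or more. The highest unit was the same in 7 of the 11, the lowest in 9 and both in 6. Both other probe sets of Hspa1b (means 8.78 and 9.41) put replicate 5 highest, at 10.11 and 10.68, and replicates 2 and 4 lowest, at 7.95 and 8.60. Both of Serpina4-ps1 put replicates 2 and 4 highest, at 10.97 and 11.32, and replicate 5 lowest, at 7.94 and 7.97. The bright one of Malat1 (6.55) read 7.20, 6.91, 5.89 and 6.22, so that replicate 5 and not the pair 2 and 4 was lowest. That of Dbp read 8.55 and 8.54 in the averaged pairs and 6.88 and 7.04 in replicates 5 and 6. Of the 3 bright ones of Egfr, the brightest (9.92) ranged by 0.16 between units, while the others kept the order of the probe set used here, with ranges of 1.12 and 0.79.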

How the data were processed

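Liver RNA of 24 samples was measured on a 1-colour mouse expression array after oligo(dT)-primed cDNA synthesis and biotin labelling, per the labels' protocols. The authors deposited linear intensity values for 45101 probe sets per array; how they summarised, background-corrected or scaled the probes is not given in the labels, and the arrays were not on a common scale. The 6 control diet arrays were quantile-normalized together, set to a floor of 8 and log2-transformed, and the near-identical arrays were averaged to 4 units. A gene was read from the probe set with the highest mean among the 34945 that GEO's platform annotation gives 1 gene. The lowest 40% of probe sets were left out of testing.

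Variation was tested with limma 3.58.1 in R 4.3.3 as an F-test over units, with a variance trend and Benjamini-Hochberg adjustment over 13077 genes. The repeat arrays gave the error. The same test was run within diet on 14 phloridzin arrays; arrays whose RNA carried 2 diet labels were left out. The test was tested on simulated data with independent errors and the pairs set beforehand. That run therefore does not cover pairs recognised by being alike. Promoter sequences came from RefSeq on GRCm38.p6, and 14452 of 18193 genes had an entry. Gene lists held 1060 symbols, of which 925 were measured; 39 lists give functions and 15 cell type markers.

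The members and lists were chosen with earlier results of these data known. Named were the 25 brightest genes; the 25 called genes with a mean of 6 or more and the largest SD; the 10 with the smallest SD among those with a mean of 9 or more; in each list up to 4 brightest members, 3 called members with the largest SD and 3 at the floor; and all reference and sex chromosome genes. Abcc5 (the gene just outside), Nfil3 and Cry1 fall outside this rule and were chosen after their values were seen. Alternatives covered scaling, floor, filter, probe set of a gene, error model and leaving out replicates.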

Additional observations from a re-analysis of the deposited data

Results flagged for a closer look

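In 3 of 50 genes and 45 list scores examined, 1 of the 4 control units lay far from the others, by the ratio of its gap to the whole range (judged by Dixon's 95% critical value for 4 samples). Chance alone gives about 1 in 20 such cases for values not picked by their spread. Of the 50 genes 25 were picked by their SD over these units, so that rate does not hold for them. Gadd45g, a stress-inducible gene, had a ratio of 0.877, with replicates 2 and 4 high at 8.58 and the other units between 6.82 and 7.04. Smad7, an inhibitor of TGF-beta signalling, had a ratio of 0.889, with replicates 1 and 3 high at 7.28; its other, dimmer probe set put replicates 2 and 4 highest. The score of Kupffer cell markers had a ratio of 0.867, with replicates 2 and 4 high, over a range of 0.15 log2.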

How the results depend on the processing

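The count of 4804 variable genes depended on the error estimate. It was 0 without the variance trend, 3130 with the error from the repeat sets of 24 arrays, 1836 without scaling, 2562 with a floor of 32, 3053 with no filter and 1856 with the median of a gene's probe sets. Leaving out control replicates, singly or, as chosen after seeing the data, both arrays of a pair, gave 0 to 4358 genes. It was 0 without any of replicates 1 to 4, which leaves 1 residual degree of freedom, 4236 without replicate 5 and 4358 without replicate 6. The other settings gave 3474 to 5058. For the 25 most variable genes, 301 calls under these settings were kept and 199 lost. Genes at the floor in all units numbered 742 with a floor of 4 and 8049 with a floor of 32, against 1935. The phloridzin count lay between 2991 and 4701. The shorter heat shock core was also chosen after seeing the data. No paired analysis was possible because only the control diet is described. Low signal limits the dim genes: under a mean of 4 the SD between repeat arrays was 0.319.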
